A study of Homo sapiens with 52 samples.

Results

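The mRNA of 10 receptor tyrosine kinases was followed in fusion-positive rhabdomyosarcoma (FP-RMS) cells exposed to compounds that act on chromatin. The genes were FGFR4, FGFR1, FGFR2, FGFR3, ALK, IGF1R, MET, PDGFRA, PDGFRB and ERBB3, taken by gene symbol from a table of 27043 genes. All 10 were present in each of the 52 samples, and all 10 passed the filter on low values that left 16359 genes for testing.

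Receptor tyrosine kinases sit in the cell membrane, bind growth factors outside the cell, pair up and phosphorylate tyrosines that start the MAP kinase and PI3 kinase pathways. ERBB3 is the member with little kinase activity of its own and signals through partners such as ERBB2 or MET. In FP-RMS, a childhood muscle-lineage cancer driven by the PAX3-FOXO1 fusion protein, FGFR4 and ALK are known target genes of the fusion, and IGF1R, MET and PDGFRA have also been studied as dependencies of these tumours.

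The promoter-side sequences of the FP-RMS receptors FGFR4 and ALK, of PDGFRB (the member whose changes were most like those of both), and of MET and FGFR3 (called in opposite directions under bromosporin and LAQ824) are shown as the 250 bases before the RefSeq start, 5′ to 3′ on the gene's own strand, in GRCh38.p14. They are chr5:177086665-177086914 (plus strand), chr2:29921587-29921836 (minus), chr5:150155846-150156095 (minus), chr7:116671946-116672195 (plus) and chr4:1793043-1793292 (plus). Capitals mark the E-box hexamers CAGCTG (its own reverse complement), CAGGTG and, for its other strand, CACCTG, the kind of motif that the muscle factors MYOD1 and MYOG recognise.
FGFR4: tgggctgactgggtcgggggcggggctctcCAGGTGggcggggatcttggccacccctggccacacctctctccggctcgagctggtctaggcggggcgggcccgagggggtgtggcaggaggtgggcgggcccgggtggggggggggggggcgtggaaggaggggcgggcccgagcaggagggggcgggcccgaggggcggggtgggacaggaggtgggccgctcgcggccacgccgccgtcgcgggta
ALK: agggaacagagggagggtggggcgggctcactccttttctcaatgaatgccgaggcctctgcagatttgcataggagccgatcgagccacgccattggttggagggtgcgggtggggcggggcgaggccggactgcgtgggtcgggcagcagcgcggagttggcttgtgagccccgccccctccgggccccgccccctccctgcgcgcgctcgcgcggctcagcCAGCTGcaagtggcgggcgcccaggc
PDGFRB: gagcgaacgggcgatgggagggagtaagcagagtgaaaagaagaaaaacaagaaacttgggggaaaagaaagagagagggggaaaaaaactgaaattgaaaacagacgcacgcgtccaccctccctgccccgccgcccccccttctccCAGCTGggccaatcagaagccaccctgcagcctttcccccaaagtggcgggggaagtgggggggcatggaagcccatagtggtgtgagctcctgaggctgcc
MET: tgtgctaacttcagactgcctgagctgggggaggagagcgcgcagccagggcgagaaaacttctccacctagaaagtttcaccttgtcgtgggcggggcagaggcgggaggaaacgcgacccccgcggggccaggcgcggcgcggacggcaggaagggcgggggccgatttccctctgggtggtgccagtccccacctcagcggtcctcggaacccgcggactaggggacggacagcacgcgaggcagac
FGFR3: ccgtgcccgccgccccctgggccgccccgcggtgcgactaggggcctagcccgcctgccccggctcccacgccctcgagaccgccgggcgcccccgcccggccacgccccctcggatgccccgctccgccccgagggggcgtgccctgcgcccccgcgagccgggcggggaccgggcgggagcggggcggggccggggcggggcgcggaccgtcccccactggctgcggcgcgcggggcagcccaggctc

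FGFR4 held a CAGGTG that begins 220 bases before the start, ALK a CAGCTG that begins 26 bases before it, and PDGFRB a CAGCTG that begins 102 bases before it. The other 5 windows found (FGFR2, FGFR3, IGF1R, MET and PDGFRA) held none of the 3 hexamers. CAGCTG was found in 13.99% and CAGGTG or its reverse complement CACCTG in 17.5% of 35116 windows of the same length. Any of the 3 hexamers was found in 28.67% of these windows, the share to set beside FGFR4, ALK and PDGFRB. Whether the receptors differ from that share was not tested. Both strands were covered, and no hexamer overlapped another. FGFR1 and ERBB3 had no entry. A match is a description of letters, not a bound site.

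The screen held 44 samples: 20 compounds at a low and a 10-fold higher dose for 6 h, and 4 samples of the solvent DMSO, 2 at 0.2% and 2 at 0.1%. The titles of these samples name the line RH41 while their cell line field says RH4; both are established PAX3-FOXO1 lines, and which one was used cannot be told apart here. The low and high doses were 0.5 and 5 µM for LAQ824 (labelled HDAC), Cpd50 (pan Jumonji) and GSKJ4 (JMJD3/UTX), and 1 and 10 µM for the other 17. Of these, Merck60 (HDAC1/2), MC1568 (HDAC4/5), WT161 (HDAC6), OJI-1 (HDAC8), bromosporin (bromodomains) and SGC-CBP30 (CREBBP/EP300 bromodomain) act, like LAQ824, on the writing, reading or removal of acetyl marks, and make up an acetylation group of 7. GSKLSD1, LSD-519 and LSD-690 (LSD1), EZ-005 (EZH2), UNC1999 (EZH1), UNC0638 (KMT1C), SGC0946 (DOT1L), PFI-2 (SETD7) and UNC-1215 (L3MBTL3) make up, with Cpd50 and GSKJ4, a methylation group of 11. Trametinib (MEK1/2) and PFI-3 (SMARCA4) belong to neither. The other 8 samples are titled and labelled RH4: N1302 (HDAC) at 1 µM and its DMSO at 6 h, and entinostat (HDAC1/2/3) at 1 µM and DMSO at 1, 6 and 24 h, with 1 sample each.

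Read totals worked back from the deposited values ran from 5737939 to 41415071 a sample. Of the 11 rhabdomyosarcoma markers, 10 were at 1 TPM or more in every DMSO sample (summed level 1342 to 2103 TPM), while the summed level of the 5 epithelial markers was 0.223 to 1.59 TPM, of the 5 endothelial markers 0.319 to 1.41 TPM and of the 4 immune markers PTPRC, CD3E, CD14 and CD68 2.22 to 4.50 TPM in DMSO, with PTPRC, CD3E, EPCAM, CDH1, KRT19, PECAM1 and KDR below 1 TPM in all samples. The sums reached 7.98, 3.38 and 13.02 TPM in any sample, and CD14 rose under LAQ824 (9.73 and 9.79 TPM against 1.09 to 1.94 in DMSO), TEK and VWF under MC1568 (by 0.59 and 0.52 on the log2 scale); their part in the receptor changes there was not tested. The 6 fibroblast markers, which muscle-lineage tumour cells can also express as collagens, summed to 1338 to 2169 TPM in DMSO with THY1 below 1 TPM. Over all samples they summed to 988 to 4435 TPM. MC1568 raised 4 of the 5 tested and lowered none, where 28.3% of all genes were called higher. The rhabdomyosarcoma markers summed to 461 to 2833 TPM over all samples. LAQ824 lowered 10 of these 11 and raised 1, where 28.1% of all genes were called lower. The part of these markers in the receptor changes was not tested either. The 4 screen DMSO libraries lay on 2 flow cells, 1 library of each concentration on each; once concentration and flow cell were allowed for, what was left varied by 1.03 times the counting noise, so the libraries of a concentration were averaged and counted as 1 sample in the levels below. A flow cell that held 14 of the 20 compounds held no DMSO, nor did that of GSKLSD1 and UNC-1215, whose changes have no check within a flow cell. In the high-dose libraries of bromosporin, Merck60 and PFI-2, the share of odd numbers among low read counts was 0.291 to 0.342, against 0.549 to 0.585 in the other libraries.

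FGFR4 was by far the most abundant of the 10 receptors. Levels are in TPM, a scale of transcripts corrected for gene length and library size on which genes can be compared, as the mean ± SD over the 2 DMSO concentrations of the screen. FGFR4 (chromosome 5, 176513873 to 176525143 in hg19, plus strand, a protein-coding gene like the other 9) was at 904, 906, 971 and 981 TPM in the 4 libraries, 940.5 ± 50.5 (SD, n = 2), rank 124 among all genes and 71.5% to 72.6% of the summed TPM of the 10. ERBB3 followed at 86.4 ± 2.51 TPM, then FGFR1 at 80.9 ± 1.62 and MET at 76.1 ± 3.52. ERBB3 lay above FGFR1 in all 4 libraries, whereas the FGFR1 and MET ranges (79.3 to 82.6 and 71.6 to 79.7) overlapped. ALK was at 37.3 ± 0.0846, IGF1R at 30.2 ± 0.278, FGFR2 at 25.0 ± 0.835 and FGFR3 at 12.7 ± 0.229 TPM, each separate from its neighbours. PDGFRB at 7.97 ± 0.595 and PDGFRA at 7.08 ± 0.169 TPM overlapped at the bottom of the order. Over the 4 single libraries the SD was larger for ALK (0.824), IGF1R (0.989), FGFR2 (1.02) and FGFR3 (0.698). It was also larger for PDGFRB (0.758) and PDGFRA (0.423), and smaller for FGFR4, ERBB3, FGFR1 and MET.

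**Figure D1:**
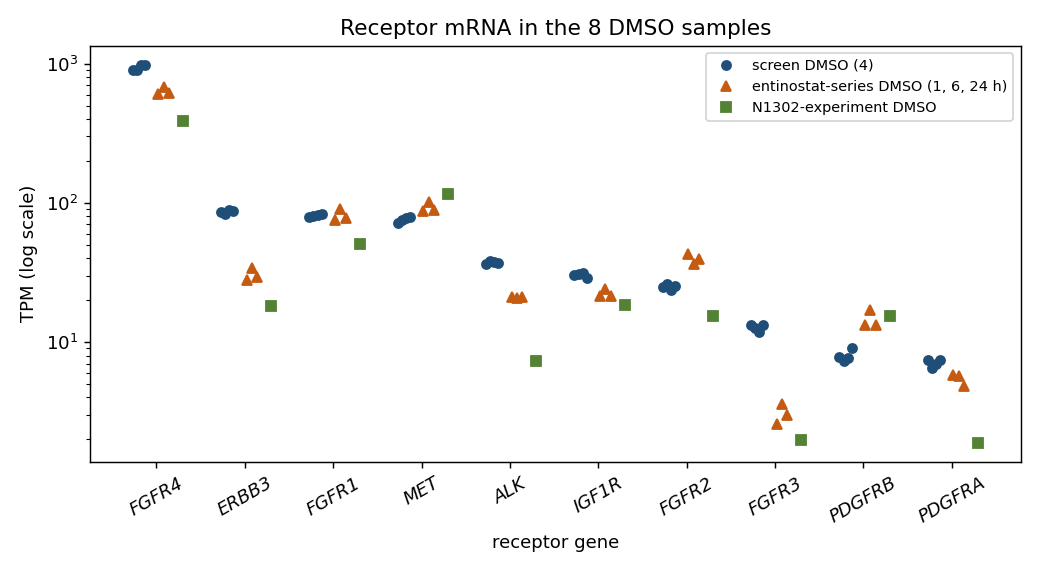
TPM (log scale) of the 10 receptors in the 8 DMSO samples, 1 point a sample. Circles are the 4 screen samples, triangles the DMSO of the entinostat series and squares the DMSO of the N1302 experiment. FGFR4 is at 389 TPM or more in every sample, and FGFR3 is at 11.8 to 13.4 TPM in the screen against 1.99 to 3.57 TPM in the others.

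The RH4-titled DMSO samples showed another profile. FGFR3 was at 1.99 TPM in the N1302 experiment and at 2.60, 2.97 and 3.57 TPM at 1, 6 and 24 h of the entinostat series, a screen mean 4.57 times the median of these 4. ERBB3 ranged from 18.2 to 33.8 TPM (screen mean 3.02 times their median) and ALK from 7.37 to 21.1 TPM. FGFR2, at 36.6 to 43.3 TPM in the entinostat series, and PDGFRB, at 13.3 to 17.0 TPM in all 4, were above the screen, as was MET at 87.3 to 116 TPM; FGFR2 in the N1302 experiment was below it at 15.4 TPM. Experiment, library and possibly line differ together between these sets, so their parts cannot be told apart and no test was made.

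Under the 20 compounds, 40 of the 200 receptor by compound tests passed (limma, adjusted p below 0.05 over all genes), 18 higher and 22 lower than DMSO, in 11 compounds. That is 20% of the tests, beside 12.7% of all gene by compound tests. In the acetylation group 27 of 70 tests passed (38.6%, beside 27.6% of all genes), in the methylation group 11 of 110 (10.0% beside 4.91%). Because these are bulk samples, a change in the share of cells that express a gene and a change per cell cannot be told apart. The log2 changes below are on the log2(TPM + 1) scale, with the standard error (SE), 2 treated samples (1 at each dose) against 4 DMSO samples; they understate changes of the low genes. With the DMSO libraries averaged to 1 per concentration, as for the levels above, 28 of the 40 kept their call, and the 12 lost are given with each gene. Of the 40, 14 passed in every alternative run, and the other 26 lost their call in at least the fit without 1 of their own doses.

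**Figure D2:**
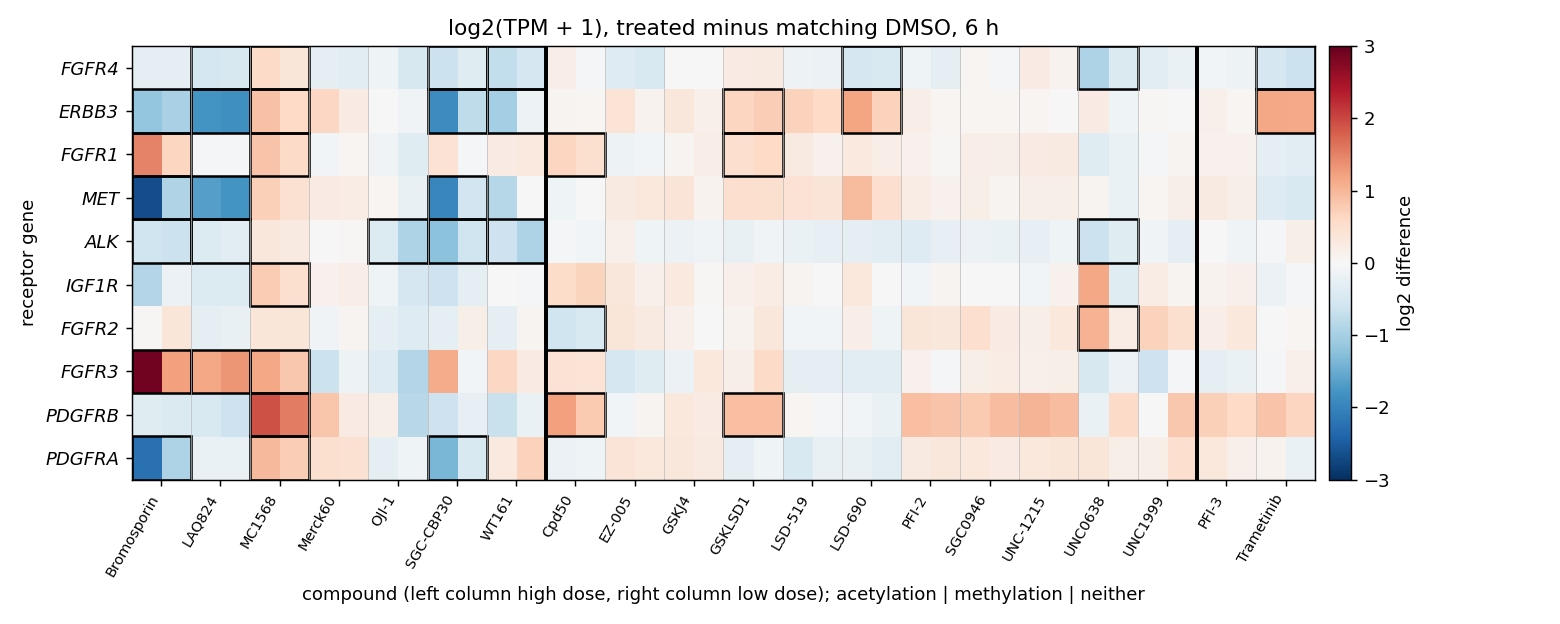
Difference in log2(TPM + 1) between each treated sample and the mean of the DMSO samples of the matching concentration, for 10 receptors (rows) and 20 compounds, with the high dose in the left and the low dose in the right column of each. Heavy lines part the acetylation, methylation and other compounds, and boxes mark the 40 tests that passed. The darkest cells are FGFR3 (2.89) and MET (-2.66) at the high dose of bromosporin.

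FGFR4 moved little on the fold scale, and its calls were mostly down. It fell in 6 compounds, by 0.69 (SE 0.12, adjusted p = 0.000498) on the log2 scale under UNC0638, 0.62 under WT161, 0.57 under trametinib, 0.51 under SGC-CBP30, 0.50 under LAQ824 and 0.48 under LSD-690. The level was 474 TPM at the high and 719 TPM at the low dose of UNC0638, 541 and 690 TPM under WT161, and 628 and 705 TPM under LAQ824, all below the 904 to 981 TPM of DMSO. FGFR4 rose under MC1568 (1339 and 1258 TPM, log2 change 0.47, SE 0.12, adjusted p = 0.0037). The uncalled compounds of the 14-compound flow cell, which held no DMSO, were also lower, from -0.12 (PFI-3) to -0.41 (EZ-005), except SGC0946 (0.01). On other flow cells, Cpd50 (0.08), GSKJ4 (0.002), UNC-1215 (0.18) and GSKLSD1 (0.26) were not lower and did not pass. Set against DMSO, compound and flow cell therefore cannot be told apart for the falls on that flow cell. Against the other compounds of the 14-compound flow cell, the falls under LSD-690, SGC-CBP30 and trametinib did not pass (-0.14, -0.17 and -0.24), whereas those under UNC0638 and WT161 did (-0.36 and -0.29). Without the high dose, UNC0638 (-0.39), SGC-CBP30 (-0.31), LSD-690 (-0.39) and MC1568 (0.42) lost the call, and trametinib lost it without the low dose (-0.56). LSD-690 also lost it without the second 0.1% DMSO library (-0.46) and with DMSO averaged (adjusted p = 0.11).

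FGFR1 (chromosome 8, 38268656 to 38326352, minus strand), the receptor for many FGFs in mesenchymal cells, changed only upward among its calls. It was at 226 TPM at the high and 129 TPM at the low dose of bromosporin against 79.3 to 82.6 TPM in DMSO (log2 change 1.07, SE 0.14, adjusted p = 2.46e-06). It also rose under MC1568 (145 and 123 TPM, 0.71), Cpd50 (126 and 115 TPM, 0.57) and GSKLSD1 (113 and 124 TPM, 0.54). Without the high dose the change under bromosporin was 0.67 and still called. Cpd50 lost the call without the high dose (0.51) and GSKLSD1 without the low dose (0.48) or with DMSO averaged (adjusted p = 0.066).

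FGFR3 (chromosome 4, 1795039 to 1810599, plus strand) showed the widest rise of the family. DMSO samples were at 11.8, 12.6, 13.2 and 13.4 TPM, while bromosporin gave 102 TPM at the high and 30.8 TPM at the low dose (log2 change 2.06, SE 0.30, adjusted p = 8.78e-06), LAQ824 29.96 and 32.8 TPM (1.24, adjusted p = 0.000835) and MC1568 30.2 and 22.8 TPM (0.99, adjusted p = 0.012). All 6 treated samples were above the DMSO range. SGC-CBP30 reached 29.0 TPM at the high dose but 11.8 TPM at the low, and did not pass (0.51, SE 0.30, adjusted p = 0.31). Without its high dose, bromosporin still passed at 1.21, and MC1568 did not (0.79).

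FGFR2 (chromosome 10, 123237844 to 123357972, minus strand) passed in a pair of compounds. Cpd50 lowered it (16.5 and 17.4 TPM against 23.7 to 26.2 in DMSO, log2 change -0.54, SE 0.16, adjusted p = 0.027), a call lost without either dose of Cpd50 (-0.57 and -0.50), without either 0.2% DMSO library or the second 0.1% library (-0.54 to -0.52), with DMSO averaged (adjusted p = 0.11) and against DMSO of the same flow cell (-0.50, adjusted p = 0.13). UNC0638 raised it (0.63, SE 0.16, adjusted p = 0.0058), with 53.4 TPM at the high and 28.9 TPM at the low dose; without the high dose the change was 0.20 and not called, and without the low dose it was 1.06.

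ALK (chromosome 2, 29415640 to 30144477, minus strand), an insulin receptor family kinase, was lower in 6 compounds and higher in none that passed. DMSO samples were at 36.4, 36.7, 37.7 and 38.2 TPM. The level was 15.4 TPM at the high and 24.0 TPM at the low dose of SGC-CBP30 (log2 change -0.92, SE 0.13, adjusted p = 6.22e-05), 23.7 and 19.3 TPM under WT161 (-0.77), 27.8 and 19.3 TPM under OJI-1 (-0.66), 24.2 and 23.5 TPM under bromosporin (-0.62), 23.6 and 28.5 TPM under UNC0638 (-0.51) and 28.0 and 29.1 TPM under LAQ824 (-0.37). Of the 7 acetylation compounds, Merck60 (36.8 and 37.8 TPM) and MC1568 (47.4 and 45.3 TPM) were the exceptions. Against the other compounds of its flow cell, the changes under OJI-1 (-0.35) and UNC0638 (-0.18) did not pass, and those under SGC-CBP30 (-0.63), WT161 (-0.47) and bromosporin (-0.31) did. The call was lost without the high dose under SGC-CBP30 (-0.61) and UNC0638 (-0.38), without the low dose under OJI-1 (-0.41), and without either dose under LAQ824 (-0.34 and -0.40). With DMSO averaged, LAQ824 (adjusted p = 0.052) and OJI-1 (0.11) lost it too.

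MET (chromosome 7, 116312413 to 116438440, plus strand), the receptor of hepatocyte growth factor, fell in 3 acetylation compounds. Against 71.6 to 79.7 TPM in DMSO it was at 22.6 and 22.0 TPM under LAQ824 (log2 change -1.73, SE 0.32, adjusted p = 3.65e-05), 10.8 and 41.3 TPM under bromosporin (-1.79, adjusted p = 6.78e-05), and 18.3 and 52.5 TPM under SGC-CBP30 (-1.26, adjusted p = 0.011). The doses of LAQ824 gave like levels, while bromosporin and SGC-CBP30 were lower at the high dose. Without the high dose the change was -0.87 under bromosporin (adjusted p = 0.057) and -0.53 under SGC-CBP30 (adjusted p = 0.85), neither called; without the low dose it was -2.71 and -1.99. SGC-CBP30 also lost the call with DMSO averaged (adjusted p = 0.065). The highest level of all samples, 143 TPM at the high dose of LSD-690, stood beside 111 TPM at the low dose, and the change did not pass (0.72, adjusted p = 0.23).

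ERBB3 (chromosome 12, 56473809 to 56497291, plus strand), a neuregulin receptor, was the member called in most compounds: 8 of 20, 4 lower and 4 higher. DMSO samples were at 83.8, 85.6, 87.7 and 88.7 TPM. It was at 23.6 and 24.1 TPM under LAQ824 (log2 change -1.82, SE 0.21, adjusted p = 3.78e-08), 22.0 and 51.6 TPM under SGC-CBP30 (-1.33), 37.5 and 44.6 TPM under bromosporin (-1.06) and 41.1 and 79.3 TPM under WT161 (-0.59). Without the high dose the changes under SGC-CBP30 (-0.73) and WT161 (-0.12) did not pass; without the low dose WT161 gave -1.05. The highest level of all 52 samples was 195 TPM at the low dose of trametinib, with 189 TPM at its high dose; trametinib is an inhibitor of MEK, which lies downstream of these receptors (ERBB3 log2 change 1.14, SE 0.21, adjusted p = 0.000727). ERBB3 also rose under LSD-690 (192 and 143 TPM, 0.93), MC1568 (156 and 134 TPM, 0.74) and GSKLSD1 (132 and 147 TPM, 0.69), and was at 137 and 134 TPM under the remaining LSD1 compound, LSD-519, which did not pass (0.64, SE 0.21, adjusted p = 0.14). LSD-690 and MC1568 lost the call without the high dose (0.72 and 0.63), and GSKLSD1 lost it without either of its doses (0.76 and 0.61) or any 1 of the 4 DMSO libraries (0.67 to 0.70). With DMSO averaged, GSKLSD1 (adjusted p = 0.15), LSD-690 (0.061) and WT161 (0.073) lost the call.

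**Figure D3:**
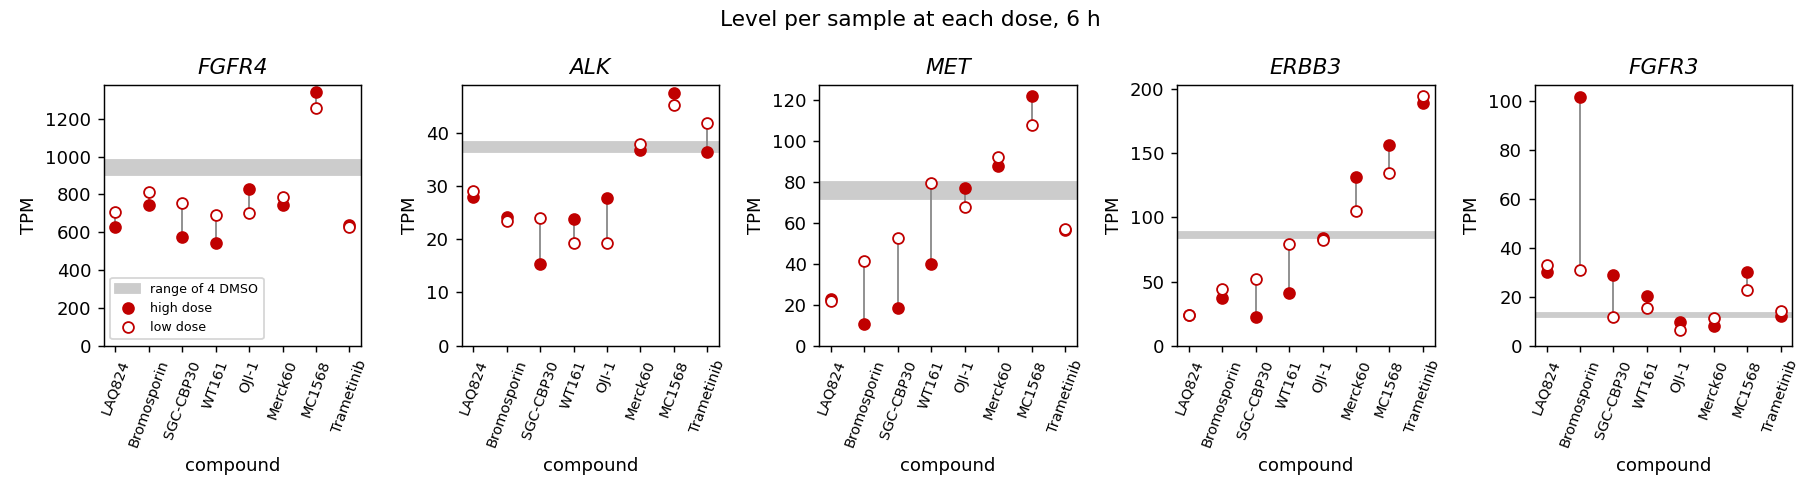
TPM of FGFR4, ALK, MET, ERBB3 and FGFR3 in 8 compounds, filled circles for the high and open circles for the low dose, 1 sample each, joined by a line; the grey band is the range of the 4 screen DMSO samples. MET and ERBB3 lie below the band at both doses of LAQ824, bromosporin and SGC-CBP30, and ERBB3 lies above it at 189 and 195 TPM under trametinib.

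IGF1R (chromosome 15, 99191768 to 99507759, plus strand), the receptor of insulin-like growth factors, passed under MC1568 alone (52.02 and 42.2 TPM against 28.9 to 31.2 in DMSO, log2 change 0.62, SE 0.23, adjusted p = 0.039). That call was lost without either dose of MC1568 (0.47 and 0.76) or any 1 DMSO library (0.59 to 0.63), with DMSO averaged (adjusted p = 0.11), and against DMSO of the same flow cell (0.64, adjusted p = 0.087). Its highest level was 68.9 TPM at the high dose of UNC0638, next to 23.2 TPM at the low dose (0.40, adjusted p = 0.20).

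PDGFRA (chromosome 4, 55095264 to 55164412, plus strand) and PDGFRB (chromosome 5, 149493402 to 149535422, minus strand), the paired receptors for platelet-derived growth factors, were called under different compounds but for MC1568, where both rose. PDGFRA fell under bromosporin, to 0.693 and 3.30 TPM against 6.51 to 7.41 in DMSO (log2 change -1.58, SE 0.23, adjusted p = 1.04e-05; -2.41 by voom on the reads), and under SGC-CBP30, to 2.06 and 5.01 TPM (-0.91, adjusted p = 0.013), and rose under MC1568 (14.7 and 12.7 TPM, 0.86). Without the high dose, SGC-CBP30 (-0.43) and MC1568 (0.76) lost the call, and bromosporin kept it at -0.91. PDGFRB rose under MC1568 to 31.3 and 26.2 TPM against 7.32 to 9.07 in DMSO (log2 change 1.73, SE 0.24, adjusted p = 6.9e-06), under Cpd50 (19.0 and 15.2 TPM, 1.01) and under GSKLSD1 (15.1 and 16.5 TPM, 0.91). Cpd50 lost the PDGFRB call without the high dose (0.86) and GSKLSD1 without either dose (0.97 and 0.84). Without the low dose the PDGFRA change under SGC-CBP30 was -1.40. With DMSO averaged, PDGFRA lost the call under SGC-CBP30 (adjusted p = 0.071) and PDGFRB under GSKLSD1 (0.084). PDGFRB was about as high, at 16.4 and 16.9 TPM, under UNC-1215, the other compound on the flow cell of GSKLSD1, where it did not pass (0.98, adjusted p = 0.15), so compound and flow cell cannot be told apart for GSKLSD1. It was at 13.7 and 16.7 TPM under SGC0946 (adjusted p = 0.094).

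Read by compound, the counts stand beside different backgrounds. Under bromosporin 6 of 10 members were called, where 46.0% of all genes were; under LAQ824 5 of 10, with 60.5% of all genes; under WT161 3 of 10, with 41.8%. MC1568 had 7 members called, all higher, where 28.3% of all genes were called higher and 4.92% lower (33.2% in all). The median change of all tested genes there was 0.26 on the log2 scale, and that of the 10 members 0.67. SGC-CBP30 had 5 called, all lower, where 6.11% of all genes were called lower and 3.73% higher (9.84% in all). Its member median was -0.48 beside 0.03 for all genes. UNC0638 had 3 with 25.2% of all genes, Cpd50 3 with 11%, GSKLSD1 3 with 7.88%, trametinib 2 with 6.14%, LSD-690 2 with 4.03% and OJI-1 1 with 1.22%. No member was called under EZ-005, GSKJ4, LSD-519, Merck60, PFI-2, PFI-3, SGC0946, UNC-1215 or UNC1999. DMSO of the same flow cell existed for Cpd50, GSKJ4, LAQ824 and MC1568, and left 13 of the 15 calls in these 4 compounds.

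Whether acting on acetylation rather than methylation separates the receptors was asked with the mean change of each compound as 1 value, 7 against 11. MET changed by -0.63 ± 0.96 (SD, n = 7) in the acetylation and 0.24 ± 0.23 (SD, n = 11) in the methylation compounds, so the groups differed by -0.87 on the log2 scale (limma, SE 0.27, adjusted p = 0.063). ERBB3 differed by -0.81 (SE 0.28, adjusted p = 0.076), IGF1R by -0.32 and FGFR3 by 0.64 (SE 0.28, adjusted p = 0.13). No member passed, 4 had an unadjusted p below 0.05, and 0.0% of all genes passed, with 5018 under 0.05 before adjustment. Leaving out MC1568, Merck60 or OJI-1, 5, 3 and 3 members passed beside 2503, 2673 and 3056 of all 16359 genes, MET (-1.08, -1.02 and -0.97) and ERBB3 (-1.02, -0.97 and -0.89) among them. Leaving out any other compound, no gene passed. MC1568, Merck60 and OJI-1 had the highest changes of the acetylation group for MET (0.58, 0.24 and -0.07) and ERBB3 (0.74, 0.44 and -0.05). Within the 14-compound flow cell, 5 against 7 compounds, MET differed by -0.92 and ERBB3 by -0.82 (adjusted p = 0.23 for each).

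The step from low to high dose, less the step from 0.1% to 0.2% DMSO, passed for no member (limma), nor had any an unadjusted p below 0.05; 0.00611% of all genes passed, which is MIR6079, named after its value was seen. Between the acetylation and methylation groups this step differed by 0.65 (SE 0.21) for FGFR3, -0.56 (SE 0.22) for MET, -0.35 for ERBB3, -0.30 for FGFR2 and 0.25 for FGFR1, all with an unadjusted p below 0.05 and with adjusted p of 0.13, 0.19, 0.24, 0.17 and 0.20; again 0.0% of all genes passed, with 3119 under 0.05 before adjustment.

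The HDAC inhibitors N1302 and entinostat were each set against 1 DMSO sample, so these differences have no replicate check and are called past the fold at 1 on the log2(TPM + 1) scale. After 6 h of N1302, 4 of 10 members were past it, with 30.9% of all genes. MET was at 26.2 TPM beside 116 in DMSO, a TPM ratio of 0.225 (95% interval 0.212 to 0.239), ERBB3 at 5.51 beside 18.2 TPM (ratio 0.303, 0.262 to 0.350), PDGFRB at 6.32 beside 15.3 TPM (0.413) and FGFR3 at 8.22 beside 1.99 TPM (4.12, 3.23 to 5.27). The intervals rest on the worked-back reads and cover counting error only. FGFR4 was at 399 beside 389 TPM (1.02, 0.997 to 1.05) and ALK at 4.22 beside 7.37 TPM (0.573). The median of all genes differed by -0.11 on the log2 scale as deposited and by 0.03 after scaling to the median ratio, under which PDGFRB came to -0.87, short of the fold.

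Entinostat gave a course over time. At 1 h no member was past the fold (1.24% of all genes were), and FGFR4 was at 618 beside 605 TPM. At 6 h ERBB3 alone was past it (6.08% of all genes), at 71.1 beside 29.4 TPM, a ratio of 2.42 (2.29 to 2.55), and PDGFRB was at 25.9 beside 13.3 TPM (1.95, 1.80 to 2.11). At 24 h ALK was at 2.76 beside 20.8 TPM, the lowest ALK level of all samples (ratio 0.133, 0.115 to 0.154), and FGFR3 at 13.7 beside 3.57 TPM (3.85, 3.29 to 4.51); these 2 members were past the fold, with 22.4% of all genes. FGFR4 stood at 396 beside 677 TPM (0.584, 0.572 to 0.596) and ERBB3 at 17.2 beside 33.8 TPM (0.507, 0.473 to 0.543). MET was at 67.0 beside 101 TPM. Scaling to the median ratio moved the median of all genes from 0.02 to 0.12 at 6 h.

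**Figure D4:**
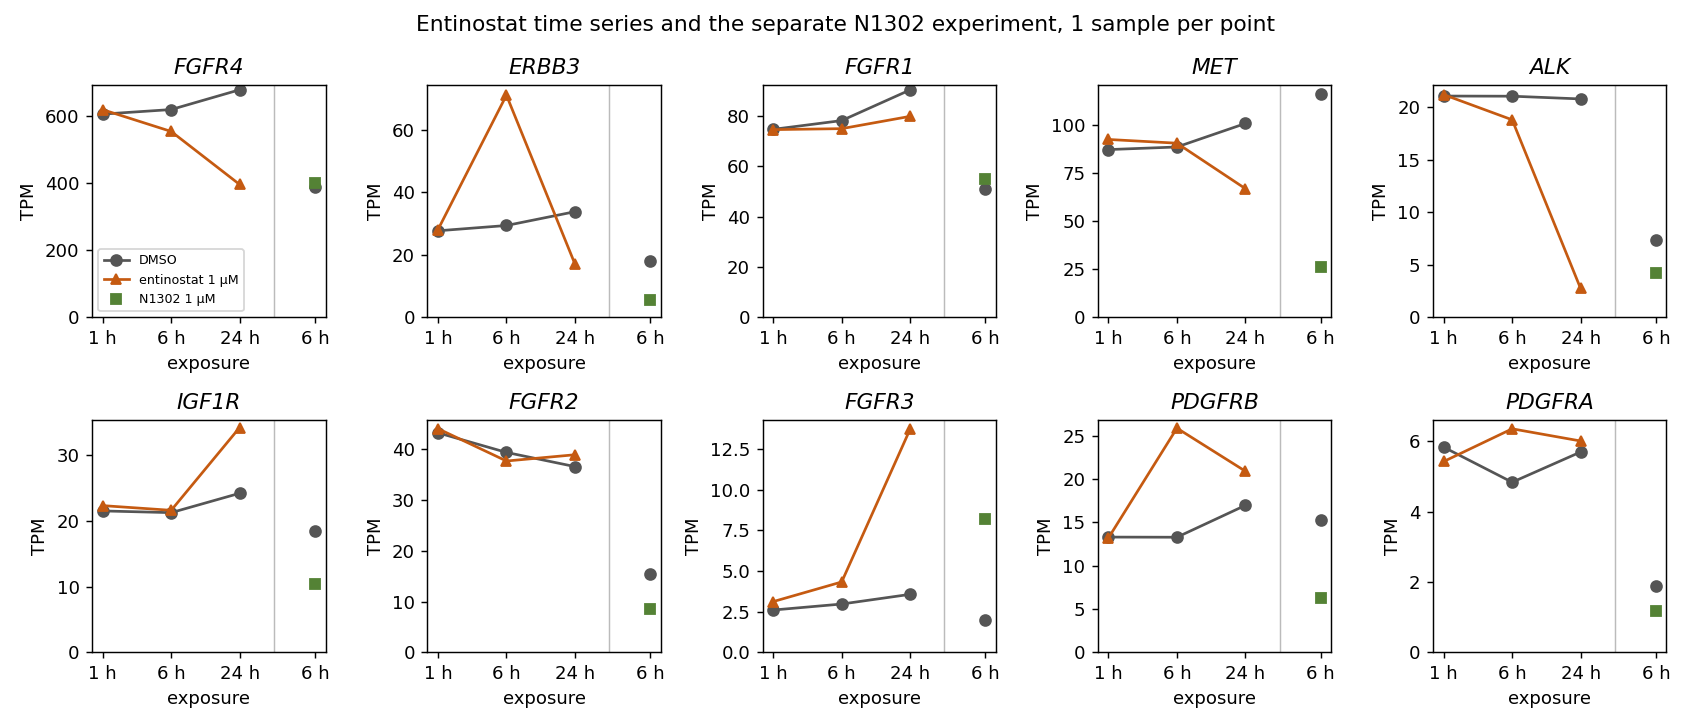
TPM of the 10 receptors in the entinostat series (triangles) and its DMSO (circles) at 1, 6 and 24 h, evenly spaced and not to scale in time, and right of the grey line in N1302 (square) and its DMSO (circle) at 6 h, 1 sample a point. ALK lies at 20.8 TPM in DMSO and 2.76 TPM in entinostat at 24 h, and ERBB3 is above DMSO at 6 h and below it at 24 h.

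Among ligands of these receptors, 31 of the 33 listed genes were in the tables and 17 were tested. The counts of this list and of those below stand beside the share of all genes called. That share was 60.5% under LAQ824, 46.0% under bromosporin, 41.8% under WT161, 33.2% under MC1568 and 25.2% under UNC0638. It was 11% under Cpd50, 9.84% under SGC-CBP30, 7.88% under GSKLSD1 and 6.14% under trametinib. These shares cover both directions. Called higher and lower were 28.3% and 4.92% under MC1568, 6.33% and 18.9% under UNC0638, and 3.73% and 6.11% under SGC-CBP30. In screen DMSO the most abundant were MDK, a heparin-binding growth factor (956 TPM), PDGFA (225), FGF8 (183), PDGFC (136) and IGF2 (97.7). IGF2 ranged widely over the 4 samples, from 67.8 to 129.8 TPM. HGF, the ligand of MET, was at 0 to 0.0204 TPM in the 4 samples and IGF1 at 0.0821 to 0.148 TPM. Under LAQ824 4 ligands rose and 8 fell, led by FGF8 (-4.07), FGF7 (-3.38) and PDGFC (-2.90). Under bromosporin 1 rose and 6 fell, led by FGF8 (-3.55), PDGFC (-2.64) and the neuregulin NRG1 (-1.71). SGC-CBP30 lowered FGF8 (-2.69), PDGFC (-1.73) and PDGFA (-0.73), with none higher. WT161 raised 2 and lowered 5, led by FGF8 (-2.10), PDGFC (-1.47) and FGF7 (-1.08). MC1568 raised 7, FGF9 by 1.15 among them, and lowered IGF2 (-1.43) and FGF7 (-1.16). UNC0638 lowered IGF2 (-0.73), PDGFA (-0.44) and MDK (-0.27), and GSKLSD1 lowered IGF2 (-0.82) and raised FGF2 (0.61). At the high and low doses, IGF2 was at 50.0 and 62.3 TPM under UNC0638 and at 52.7 and 51.8 TPM under GSKLSD1. Cpd50 raised IGF2 (1.10) and NRG2 (0.61) and lowered FGF2 (-0.55). The list's median change was -0.24 under LAQ824 beside 0.06 for all genes, -0.17 under bromosporin beside -0.12, and 0.53 under MC1568 beside 0.26.

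Of 48 other receptor tyrosine kinases, 37 were tested. Called among all genes were 60.5% under LAQ824, 46.0% under bromosporin, 41.8% under WT161, 33.2% under MC1568, 25.2% under UNC0638 and 9.84% under SGC-CBP30. LAQ824 raised 13 and lowered 11, with DDR2, a collagen receptor, at -2.55, the ephrin receptor EPHA3 at 2.31 and TYRO3 at -2.09. Bromosporin raised 5 and lowered 9 (AATK -2.05, TYRO3 -1.59, MUSK -1.24). WT161 raised 11 and lowered 7, led by EPHB3 (1.32), EPHA3 (1.32) and MERTK (1.06). MC1568 raised 26 and lowered none, led by ROR2 (1.296), AATK (1.20) and EPHB3 (1.13). Of all genes, 28.3% were called higher and 4.92% lower there. SGC-CBP30 raised 1 and lowered 5 (AATK -1.43, EPHA2 -1.40, LTK -0.63), and UNC0638 raised 1 and lowered 9, among them EGFR (-1.11), EPHB2 (-1.03) and ERBB2 (-0.996). Cpd50 raised AATK (1.27), NTRK3 (0.78) and KIT (0.70), and GSKLSD1 raised AATK (1.28) and lowered EPHA4 (-0.45). The list's median was 0.62 under MC1568 beside 0.26 for all genes, -0.04 under LAQ824 beside 0.06, and -0.15 under SGC-CBP30 beside 0.03.

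Of 20 co-receptors and binding proteins, 17 were tested. Beside them, the share of all genes called was 60.5% under LAQ824, 46.0% under bromosporin and 41.8% under WT161. For MC1568 it was 33.2%, for UNC0638 25.2% and for SGC-CBP30 9.84%. Of the heparan sulphate proteoglycans, which help FGFs bind, SDC4 rose under LAQ824 (1.56), WT161 (1.54) and bromosporin (1.02), and SDC1 fell under LAQ824 (-1.57), WT161 (-1.07) and UNC0638 (-0.74). LAQ824 raised 6 and lowered 4, IGFBP3 among those higher (0.95). WT161 raised 5 and lowered 2, with FGFRL1 at 0.78. Bromosporin raised 2 and lowered 4, with IGFBP6 at -0.92 and NRP2 at -0.78. SGC-CBP30 lowered 5 and raised none, led by NRP2 (-1.18), IGFBP6 (-0.77) and SDC3 (-0.65). MC1568 raised 7 and lowered none, led by IGFBP5 (1.05), FGFBP3 (0.88) and IGF2R (0.88). Of all genes, 28.3% were called higher and 4.92% lower there. UNC0638 lowered 6, with FGFRL1 at -0.80 and IGFBP3 at -0.72, and raised none. GSKLSD1 raised 3, NRP1 (0.60) and IGF2R (0.43) among them, and lowered IGFBP6 (-0.83). None was called under Cpd50.

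Of 22 adaptors and proximal signalling genes, 21 were tested. All genes were called at 60.5% under LAQ824, 46.0% under bromosporin, 41.8% under WT161, 33.2% under MC1568, 25.2% under UNC0638 and 9.84% under SGC-CBP30. IRS1, which docks to IGF1R, fell under LAQ824 (-2.04), bromosporin (-1.44) and SGC-CBP30 (-1.40). LAQ824 raised 6 of them and lowered 8, with SHC4 at 1.81 and SOS1 at -1.19. Bromosporin raised 7, the PI3 kinase subunits PIK3R1 (1.65) and PIK3R3 (1.32) among them, and lowered 3. WT161 raised 6 and lowered 3, led by SHC4 (1.07), GRB2 (0.97) and SHC1 (0.95). MC1568 raised 5, led by GAB2 (1.56), SHC4 (1.26) and SHC2 (0.996), and lowered 1. SGC-CBP30 raised PTPN11 (0.24) and lowered SHC1 (-0.45) beside IRS1. UNC0638 raised IRS2 (1.08) and lowered 4, SHC2 (-1.12) and PIK3R2 (-0.98) among them. Cpd50 raised CRKL (0.67) and lowered PIK3R3 (-0.86) and PTPN11 (-0.28), and GSKLSD1 raised PLCG1 (0.52).

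All 23 genes of a list drawn up as negative regulators of receptors were tested. FLRT1 and FLRT2 are in the list and its counts but are not classed here as inhibitors. The share of all genes called was 60.5% under LAQ824, 46.0% under bromosporin, 41.8% under WT161 and 33.2% under MC1568. For UNC0638 it was 25.2%, for SGC-CBP30 9.84% and for trametinib 6.14%. Among the Sprouty genes, feedback inhibitors of FGF signalling, SPRY2 fell under LAQ824 (-2.98) and WT161 (-1.43), SPRY1 under LAQ824 (-1.62) and bromosporin (-1.08), and SPRY4 under SGC-CBP30 (-1.61) and bromosporin (-1.33). LAQ824 raised 7 and lowered 10 of the list, with FLRT2 at -1.60. Bromosporin raised 4 and lowered 6, and RNF41, a ligase that turns over ERBB3, was at 1.41; under SGC-CBP30, which raised 1 and lowered 4, RNF41 was at 0.72 and IL17RD at -0.75. WT161 raised 7 and lowered 2, with SPRED3 at 1.33 and PTPN1 at 1.10. MC1568 raised 7 and lowered none, led by SPRED3 (1.28), FLRT1 (1.05) and LRIG3 (0.70). Of all genes, 28.3% were called higher and 4.92% lower there. UNC0638 raised 3, SPRED3 (1.002) and ERRFI1 (0.77) among them, and lowered 2, with FLRT1 at -0.86. GSKLSD1 raised SPRED3 (1.24), DUSP4 (0.98) and LRIG1 (0.53), and Cpd50 raised DUSP5 (1.42). Under trametinib 2 rose and 8 fell, and the list's median was -0.47 beside 0.01 for all genes.

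The 6 transcription factors MYOD1, MYOG, SOX8, MYCN, PAX3 and FOXF1 are given beside the receptors as a description. FOXF1 was added to the factors the study names as the core circuit of FP-RMS, and PAX3 stands for its fusion, whose reads it can include. LAQ824 lowered all 6, among them MYOD1 (-3.12), MYOG (-3.50) and FOXF1 (-4.37), where FGFR4 changed by -0.50 and ALK by -0.37. WT161 lowered 5 of them (MYOG -2.10, MYOD1 -1.69), bromosporin 4 (MYOG -1.86, MYCN -1.43) and SGC-CBP30 SOX8 (-0.80) and MYCN (-1.21). UNC0638 lowered MYOD1 (-1.18) and SOX8 (-0.71), and MC1568 SOX8 (-0.54). Trametinib lowered MYCN (-1.55) alone of the 6. Lowered among all genes were 28.1% under LAQ824, 18.8% under WT161, 29.5% under bromosporin and 6.11% under SGC-CBP30. The same share was 18.9% under UNC0638, 4.92% under MC1568 and 3.08% under trametinib.

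Over the 40 treated screen samples, which share their 4 DMSO samples, the changes of MET and ERBB3 were the most alike of the 45 pairs of members (Pearson r = 0.84), and those of FGFR3 and MET the most opposed (r = -0.70). Among 11121 genes with a mean of at least 5 TPM, the 5 most like FGFR4 were P3H3 (r = 0.89), PLXNB2 (0.88), DNAJC4 (0.87), MZF1 (0.86) and CPXM1 (0.86). The 5 most like ALK were TENM3 (r = 0.85), DOCK6 (0.84), DST (0.80), MYBPC2 (0.79) and SULF2 (0.79). PDGFRB was the member nearest to each, at rank 89 for FGFR4 (r = 0.75) and rank 45 for ALK (r = 0.71), while FGFR4 and ALK correlated at 0.54. Samples of a compound and of a flow cell are not independent, so these values are descriptions.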

How the data were processed

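RNA-seq of poly-A selected RNA was deposited by the authors as 1 table of TPM values a sample, 52 in all, made with STAR, RSEM and a UCSC annotation on hg19, and the submitters' processing notes also name edgeR. Whole reads were worked back from the TPM steps (100% of 23645 genes above 0 within 0.01 read), and the method was tested on simulated data. Values were analysed as log2(TPM + 1), for genes at 1 TPM or more in at least 2 samples, with limma 3.58.1 in R 4.3.3 (empirical Bayes with a mean-variance trend, Benjamini-Hochberg adjustment, threshold 0.05) on 44 screen samples, taking both doses of a compound as replicates. The study's methods speak of replicate experiments, but no source used here says that these were the doses or that the samples came from separate cultures, so p-values measure the spread between these samples, which may be technical. The members and lists were chosen with earlier results of these data known. The text names the members, the 3 called genes of each list with the largest change under compounds with 3 or more members called, and the 5 genes most like FGFR4 and ALK. Axis and dose comparisons used compound means and a dose term in limma. Positions are those of the tables (hg19), with the strand from GENCODE; promoter sequences are from RefSeq (GRCh38.p14). 1 listed immune marker is not reported here. Figures were drawn with matplotlib 3.10.9. Alternatives tried were the pseudocount, a median-ratio scaling over 6316 genes, the filter, the reference, a dose block, voom on the reads, and leaving out each sample.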

Additional observations from a re-analysis of the deposited data

Results flagged for a closer look

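FGFR4 under MC1568 stood apart from the other 6 acetylation compounds: its log2 change there was 0.47, and the gap to the nearest compound was 0.678 of the whole range of the 7. Of 20 sets checked in this way (4 DMSO samples and 7 acetylation compounds for each member), this was the 1 that stood apart, and the 95% critical value used would by its construction pass about 1 set in 20 by chance.

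ERBB3 was above its DMSO sample after 6 h of entinostat (log2 difference 1.24) and below it after 24 h (-0.94), with 1 sample each; the difference between these times was not tested.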

How the results depend on the processing

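The number of receptor calls, 40, stayed between 28 (DMSO averaged per concentration) and 48 (voom on the whole reads) over the changes of pseudocount, scaling, filter, trend, dose block and DMSO averaging, and between 35 and 53 with 1 sample left out, where a compound left with 1 sample is assumed to vary like the others. Median-ratio scaling gave 18 higher and 20 lower. No called value changed sign. Against other compounds of the 14-compound flow cell, 27 calls were made where DMSO gave 22. Members passing between the acetylation and methylation groups ranged from 0 to 5 with 1 compound left out (0 to 3056 of all genes), and were 0 in the other settings, also where 1614 (high dose alone) and 791 (5 TPM filter) of all genes passed. Between 0.2% and 0.1% DMSO no gene passed (limma; 1548 were under 0.05 before adjustment). Taking the replicate as a block gave 0 (1768 before adjustment), and dropping the filter gave 1, SCT, named after its value was seen. The replicate numbers of the DMSO libraries follow the flow cells, not a stated culture. Scaling lost FGFR2 Cpd50 (-0.42), ERBB3 (0.61) and FGFR1 (0.47) GSKLSD1, and ALK LAQ824 (-0.30), and omitting the filter ERBB3 GSKLSD1 and IGF1R MC1568. The causes were not tested. Depth limits PDGFRA and PDGFRB most, with as few as 36 and 66 reads in a sample.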

Other observations

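The high and low doses of UNC0638, labelled KMT1C, gave different receptor profiles. At 10 µM IGF1R was at 68.9 TPM and FGFR2 at 53.4 TPM, above every other sample of the series, with FGFR4 at 474 TPM; at 1 µM they were at 23.2, 28.9 and 719 TPM. PDGFRB, like FGFR4, was lower at the high dose, with 6.39 TPM at 10 µM and 12.99 TPM at 1 µM.

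Receptor kinases outside the 10 members were led in screen DMSO by EPHB4 (129 TPM), PTK7 (117 TPM), EPHA2 (110 TPM) and EPHA7 (99.7 TPM), all above ERBB3, the second most abundant member. LTK, the nearest relative of ALK, was at 47.5 TPM.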
